A study of Mus musculus with 4 samples.

Results

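The RNA levels described here are those of 36 genes of glucose metabolism and the hypoxia response in basal cells sorted from mouse mammary transplants. The genes were listed by name: 20 that carry glucose into the cell, break it down to pyruvate and handle lactate (the glycolysis group), and 16 that respond to or sense low oxygen (the hypoxia group). All 36 matched a row among the 34615 gene rows of the count tables. Mammary epithelial cells of genotype WT;RosamTmG/mTmG or miR-205fl/fl;RosamTmG/mTmG, both carrying a membrane reporter that turns from red to green on recombination, received a Cre adenovirus (Ad-cre) and grew for 8 weeks in SCID-Beige mice that were 3 weeks old at transplantation. These hosts lack functional T, B and natural killer cells, and cells were pooled from 40 outgrowths, a number not stated per genotype. Green basal cells (CD24+, CD49f high) of the groups labelled WTfl/flmTmGfl/fl cre+ (WT) and miR205fl/flmTmGfl/fl cre+ (KO, in which the microRNA miR-205 is the floxed target) gave 2 libraries each. Nothing states that libraries of a genotype came from separate pools, so p-values reflect only how far these libraries differ, and that spread may be technical.

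Glycolysis turns glucose into pyruvate in the cytosol. Lactate dehydrogenase turns pyruvate into lactate, while the pyruvate dehydrogenase complex sends it to the mitochondria, and pyruvate dehydrogenase kinases close that second route. Under low oxygen the transcription factor subunit HIF-1alpha escapes hydroxylation by the Egln prolyl hydroxylases and induces many glycolytic genes, Pdk1, Bnip3, Car9 and the hydroxylases themselves. HIF-1alpha is controlled mainly through protein stability, so the level of Hif1a RNA is not a measure of its activity.

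HIF-1 binds a core of ACGTG or GCGTG, and the promoters of the listed genes were searched for it. RefSeq promoters (GRCm38.p6, 250 bases before to 50 after each start) were found for 34 of the 36 genes, not for Ndrg1 and Bnip3l. On either strand, ACGTG or GCGTG was present in 30 of the 34 genes (88.2%), against 65.2% of 10321 tested genes with a promoter and 46.7% of all 27025 genes in the table. ACGTG alone was present in at least 1 promoter of 21 of the 34 genes (61.8%), against 27.8% and 21.8%. The longer form ACGTGC, which overlaps it, was present in 15 genes (44.1%), against 9.0% and 6.7%. Counted per start site, 24 of 48 promoters of these genes held ACGTG (50%), against 23.9% of 13190 and 19.6% of 32851. Median G+C was 61.8% in these promoters and 60.3% in those of tested genes. The following windows of 27 bases show the core in capitals for genes whose values are taken up below, read 5′ to 3′ on the strand that carries the core.
Ldha, 47 bases before the start, chr7:46845746-46845772, plus strand: gcccagcctacACGTGggttcccgcac
Slc2a1, 36 bases before the start, chr4:119108698-119108724, plus strand: tcccgccccggACGTGctccccaggcc
Pgk1, 150 bases before the start, chrX:106186939-106186965, plus strand: cgtcgtgcaggACGTGacaaatggaag
Bnip3, 107 bases before the start, chr7:138909598-138909624, minus strand: gcacgcgccgcACGTGccacacgctcc
Car9, 18 bases before the start, chr4:43506997-43507023, minus strand: ggacgggctgtACGTGcatcggaaata
P4ha1, 16 bases before the start, chr10:59323269-59323295, minus strand: cagccctcgctACGTGcgctctgtcac
Ldha held 5 matches to ACGTG in 1 of its promoters, the most among the 34 genes; 4 of them are 2 copies of CACGTG, which reads the same on both strands. A match is a description of the letters and not a measured binding site. The list was drawn up by name and includes known HIF-1 targets. A share above the background therefore comes with the choice of genes and is not a result of these libraries.

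The second set of sequences concerns the deleted microRNA. Mature miR-205-5p (RefSeq, chr1:193507503-193507524, minus strand, GRCm38.p6) is printed with its seed, bases 2 to 8, in capitals, above the 3 sites in the longest annotated 3′ UTRs of listed genes that pair with the whole seed (GENCODE M21, site in capitals).
miR-205-5p: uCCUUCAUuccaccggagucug
Hk2: ctggtgtacagtgaaATGAAGG
Pfkl: tcctcagagaagtttATGAAGG
P4ha1: ctgcacttgatgaatATGAAGGA
The P4ha1 site has the extra A of an 8mer. A match to ATGAAGG was present in 3 of 36 genes (8.3%), against 1738 of 12656 tested genes with an annotated 3′ UTR (13.7%). The weaker form TGAAGGA pairs with all of the seed but its last base and has that A. It was present without the full seed match in Ldhb, Pdk1, Bnip3l, Hif1a, Ndrg1 and Ddit4, and its share among tested genes was not counted.

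The row of Mir205 itself held 0 counts in all 4 libraries. A mature microRNA is too short to be retained in such libraries, so the row does not check the deletion. Total gene counts were 47953972 to 60030932 per library. KO replicate 2 stood apart: 12679 genes had a count there, against 18027 to 18897 in the other libraries. Across tested genes, log2 CPM of that library correlated with the others at 0.88 to 0.888, and the other pairs at 0.965 to 0.976; over the 36 genes the values were 0.865 to 0.896 and 0.974 to 0.986. These are correlations across genes, which are not independent replicates. Of 8 basal markers, Krt5, Trp63, Acta2, Itga6, Myh11 and Col17a1 stood at 900.1 CPM or more in every library, while Cnn1 (122 to 272 CPM) and Oxtr (104 to 333 CPM) were lower. Myh11, Cnn1, Acta2 and Col17a1 were lowest in KO replicate 2, and Col17a1 was lower in both KO libraries than in WT. Values below are TMM-scaled CPM (counts relative to the effective library size), in the order WT replicate 1, WT replicate 2, KO replicate 1, KO replicate 2.

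No listed gene passed the test between genotypes. With edgeR's quasi-likelihood test and Benjamini-Hochberg adjustment over 15364 genes, 0 of 36 were called (0% of all genes were called), and the smallest adjusted p among them was 0.999. At an unadjusted p under 0.05 in edgeR there were 3 of 36, Ldha, Aldoa and Adm, all higher in KO, where 0.957% of all tested genes were below that value. Such values were commoner among abundant genes. They were found in 60 of the 3343 tested genes at or above 56.9 CPM, the median level of the listed genes. DESeq2 and limma voom also called 0 of the 36. The spread that the test worked with was wide (biological coefficient of variation 0.932, the common estimate of edgeR). Hence 0 calls does not show that the genes are alike in both genotypes. That 1 value covers all tested genes, while the WT pair correlated at 0.965 and the KO pair at 0.888. In KO replicate 2 the median absolute log2 ratio to the WT mean was 3.44 at 1 to 5 CPM in WT and 0.393 over 100 CPM. The differences below are therefore values, and none is a call.

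The position of the libraries differed between the 2 groups of genes and with the scaling. Both KO values were above both WT values in 9 of 20 glycolysis genes, a pattern seen in 13.2% of all tested genes, and below them in 1 of 20, against 19.2%. In the hypoxia group 5 of 16 were above and 2 of 16 below, so that the genotypes did not overlap in 17 of 36 genes, against 32.4% of all tested genes. With library totals in place of TMM the glycolysis group had 4 above and 2 below, and the hypoxia group 5 and 4, where 10.6% and 21.4% of all tested genes were above and below. Hk1, Gapdh, Pgk1, Ldhb and Slc16a1 were above with TMM and overlapped with library totals, while Hk2, Egln3 and Ndrg1 were below with library totals alone. The pattern is commoner among abundant genes: at a mean of 50 CPM or more KO was above in 9 of 19 listed genes and 23.2% of tested genes, and below in 1 of 19 and 11.3%. Fold changes (log2 of KO over WT) were positive in 13 of 20 glycolysis genes, with a median of 0.24, and in 9 of 16 hypoxia genes, with a median of 0.07. Over all tested genes 42.8% were positive and the median was -0.14. Among the 3343 tested genes at or above 56.9 CPM, the median level of the listed genes, 63.8% were positive, with a median of 0.13, and 13 of the 18 listed genes at that level were.

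Summed over the 20 glycolysis genes, the libraries stood at 2522, 2753, 3131 and 3404 CPM, both KO values above both WT values. The ratio of KO to WT means was 1.24, and 1.13 with library totals (exact permutation test, two-sided, p = 0.333, the smallest that 2 against 2 allows). Summed over the 16 hypoxia genes they stood at 1488, 1638, 1525 and 2235 CPM, a ratio of 1.203 (exact permutation p = 0.667), with KO replicate 1 between the WT libraries. Without KO replicate 2 this ratio was 0.976, and that of the glycolysis genes 1.19. The same ratio was 1.10 over all tested genes and 1.11 over tested genes at or above 56.9 CPM. Over all tested genes this ratio is set by the TMM factors (1.06, 1.03, 1.05 and 0.870 in the 4 libraries). It shows how the scaling moves a sum and does not measure a rise of all genes in KO.

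**Figure D1:**
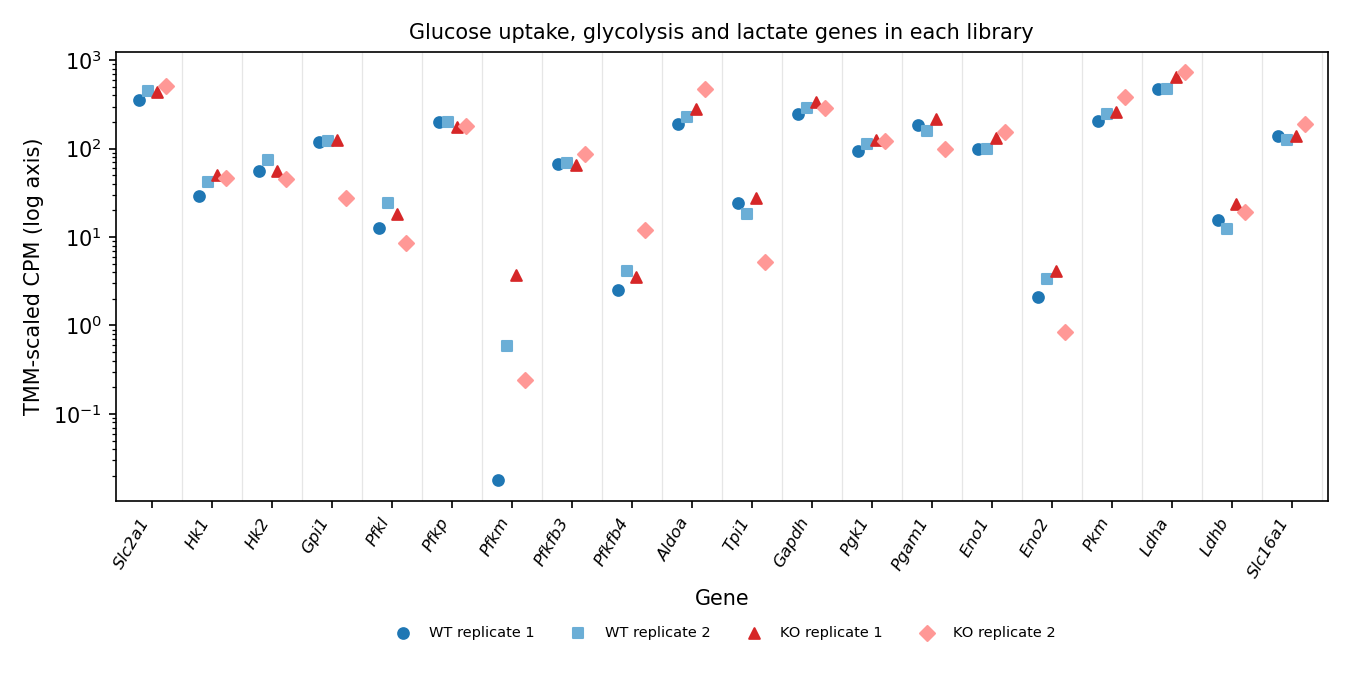
CPM of the 20 glycolysis genes (TMM-scaled, log axis) in the 4 libraries, 1 point per library. Ldha stands highest in all 4 libraries, and KO replicate 2 lies far below the others for Gpi1 and Tpi1.

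Glucose enters through Slc2a1 (GLUT1), the main transporter of this list. Slc2a1 stood at 359, 449.8, 437.7 and 510.7 CPM. KO replicate 1 lay between the WT libraries, so the groups overlap, and the log2 fold change was 0.23 ± 0.22 (SE).

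Hexokinases trap glucose in the cell by phosphorylation, and the 2 listed forms had fold changes of opposite sign. Hk1, the widely expressed form, stood at 29.3, 41.8, 50.9 and 46.4 CPM, with both KO values above both WT values. Hk2, the form induced by growth signals and hypoxia, stood at 55.9, 74.8, 56.2 and 45.2 CPM, with overlap. The log2 fold changes were 0.45 ± 0.38 for Hk1 and -0.37 ± 0.34 for Hk2. Per kilobase of the principal transcript, Hk1 made up 42.8% and 44.4% of the pair in WT and 56.5% and 59.5% in KO, a difference of 14.4 percentage points between means of 43.6% ± 1.14 and 58.0% ± 2.14 (SD, n = 2). This share does not depend on library scaling. Its exact permutation p was 0.333, the smallest possible, before any adjustment over 7 families compared. The other share whose libraries did not overlap was that of Pdk1 among the listed pyruvate dehydrogenase kinases, 2.995%, 1.90%, 1.399% and 0.00279%. Hk2 carries 1 of the 3 miR-205-5p seed matches printed above, and whether miR-205 acts on that site was not tested.

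Gpi1, which turns glucose 6-phosphate into fructose 6-phosphate, stood at 119.9, 120.9, 126 and 27.4 CPM. KO replicate 1 was next to the WT libraries and KO replicate 2 stood at -2.13 relative to the WT mean (log2 of CPM + 0.1). Of the 2155 tested genes over 100 CPM in WT, 4.5% were more than 2-fold below the WT mean in that library, and Gpi1 was the 1 listed gene among 14 that was.

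Phosphofructokinase commits sugar to glycolysis and was represented almost wholly by the platelet form. Pfkp stood at 201.6, 202.4, 173.8 and 182.7 CPM, the 1 glycolysis gene with both KO values below both WT values (log2 fold change -0.18 ± 0.20). It made up 87.1% to 94.8% of the family per kilobase. The liver form Pfkl had 12.8, 24.5, 18.4 and 8.67 CPM, and the WT libraries alone spanned most of that range. The muscle form Pfkm was low, with 1, 35, 234 and 10 counts, and its log2 fold change of 2.70 ± 2.40 was -0.34 without KO replicate 1. Pfkp overlaps Pitrm1 on the opposite strand over 748 bases, and the strand setting of the counting is not given in the sources used here.

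The bifunctional enzymes that set the level of fructose 2,6-bisphosphate, an activator of phosphofructokinase, were led by Pfkfb3 with 67.2, 69.1, 65.8 and 87.4 CPM. Pfkfb4, a hypoxia-induced form, had 2.52, 4.13, 3.56 and 12.1 CPM. In both genes only KO replicate 2 lay above the WT libraries.

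Aldoa, the aldolase that splits fructose bisphosphate, had the highest log2 fold change among glycolysis genes over 100 CPM in WT. Aldoa stood at 192, 226, 280.3 and 479.3 CPM, with both KO values above both WT values under TMM and under library totals. Its log2 fold change was 0.86 ± 0.32 (edgeR unadjusted p = 0.0425, adjusted p = 0.999), and 0.42 without KO replicate 2, where Ldha (0.46) and Eno1 (0.43) were higher. Tpi1, which interconverts the triose phosphates, stood at 24, 18.2, 27.5 and 5.25 CPM, lowest in KO replicate 2 and highest in KO replicate 1. Gapdh, the first oxidative step, stood at 245, 286, 336 and 291 CPM.

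Gapdh also had the most near-identical copies among the listed genes, which makes its count uncertain. A search of GENCODE M21 transcripts found 78 other genes with a stretch of at least 200 bases at 95% identity or more, and 34 of them had a row. Their rows held 283, 301, 437.6 and 239 CPM, about as much as Gapdh itself. Added to Gapdh they gave 528, 587, 774 and 530.2 CPM, and the groups then overlapped. Eno1 was affected less: 2 such rows held 21.1, 55.9, 44.1 and 21.4 CPM, and the sums, 121, 155, 178 and 174 CPM, kept both KO values above both WT values.

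The lower steps of the pathway stood mostly higher in KO. Pgk1, the first ATP-forming step, stood at 94.6, 113, 124 and 123 CPM. Eno1, the main enolase, stood at 100.3, 98.8, 134 and 153 CPM, with a log2 fold change of 0.53 ± 0.24 (edgeR unadjusted p = 0.0777). Pkm, the pyruvate kinase gene, stood at 207, 245, 259 and 383 CPM (log2 fold change 0.51 ± 0.27, and 0.20 without KO replicate 2). In these 3 genes both KO values were above both WT values, and Pgk1 overlapped when library totals were used. Pgam1, the phosphoglycerate mutase, broke the row with 184, 158, 215 and 98.2 CPM, so that the KO libraries lay on either side of WT. The neuronal enolase Eno2 had 2.11, 3.38, 4.15 and 0.839 CPM and made up 0.397% to 2.42% of enolase per kilobase.

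Ldha, which makes lactate from pyruvate, had the highest mean over the 4 libraries of the listed genes by CPM and per kilobase, and the smallest p; in both WT libraries Ndrg1 was higher by CPM. It stood at 469, 478.9, 650.1 and 739 CPM. The WT libraries lay close together and both KO libraries lay above them, under TMM and under library totals. The log2 fold change was 0.55 ± 0.18 (edgeR unadjusted p = 0.0297, adjusted p = 0.999), with 0.46 in the fit without KO replicate 2 and 0.64 in the fit without KO replicate 1. Ldhb, the form that favours pyruvate, had 15.8, 12.3, 23.8 and 19.2 CPM. The Ldha share of the pair per kilobase was 95.3% to 96.6% in all libraries, so the balance of the 2 forms did not part the genotypes. Slc16a1 (MCT1), a lactate and pyruvate carrier, stood at 139, 124, 141 and 192 CPM, with KO replicate 1 just above the WT libraries.

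**Figure D2:**
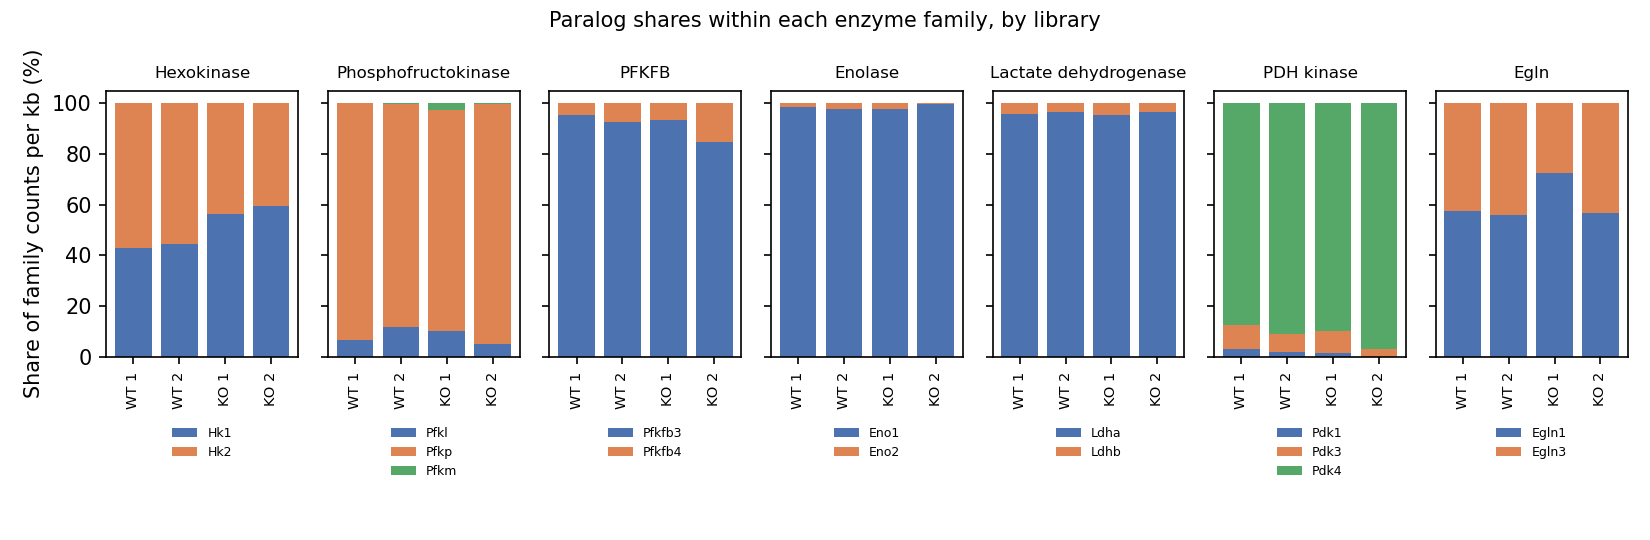
Share of each paralog in its enzyme family (percent of counts per kilobase of the principal transcript), 1 stacked bar per library, for 7 families. The Hk1 part of hexokinase is 42.8% and 44.4% in WT and 56.5% and 59.5% in KO, while Ldha, Eno1 and Pfkp fill most of their bars in every library.

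Pyruvate dehydrogenase kinases, which hold pyruvate out of the mitochondria, were led by Pdk4, a form induced by fasting and glucocorticoids as well as other signals. Pdk4 stood at 231, 259, 299 and 559.1 CPM, with both KO values above both WT values (log2 fold change 0.81 ± 0.34, edgeR unadjusted p = 0.0648), and the fold change was 0.29 without KO replicate 2. It made up 87.4% to 97% of the family per kilobase. Pdk1, the classic hypoxia-induced form, had 11.8, 8.065 and 6.93 CPM in the first 3 libraries and 1 count in KO replicate 2. That single count is 414-fold below the WT mean, with a 95% counting interval of 74.3 to 16400. Pdk3 had 15.5, 12.3, 17.7 and 10.5 CPM and a log2 fold change of 0.02 ± 0.66, which turned to -0.08 with library totals.

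The 2 mitophagy receptors of the list differed in level. Bnip3l (NIX) stood at 64.9, 66.6, 77 and 165 CPM, with both KO values above both WT values (log2 fold change 0.88 ± 0.42, and 0.23 without KO replicate 2). Bnip3 had 3.80, 1.16 and 3.10 CPM and no count in KO replicate 2. The floor of 3 counts there is 0.0719 CPM, so Bnip3 was at least 34.5-fold lower than the WT mean in that library. For Bnip3, 5 other genes matched 94.2% of its transcript at 95% identity or more, and the 1 that had a row held no counts. How reads shared by such genes were counted is not given in the sources used here. The level of Bnip3 in all libraries is therefore uncertain, and the bound above covers counting error only.

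The oxygen sensors showed no common direction. Egln1 (PHD2), the main prolyl hydroxylase, stood at 50.3, 50.9, 72.1 and 49.9 CPM, highest in KO replicate 1 and lowest in KO replicate 2. Egln3 (PHD3), itself a hypoxia target, stood at 27.5, 30, 20.2 and 28.4 CPM. Hif1a stood at 392, 404, 383 and 573 CPM, so that only KO replicate 2 was above the WT libraries. Its log2 fold change was 0.26 ± 0.26, and -0.05 without KO replicate 2.

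Among the remaining hypoxia-induced genes, Adm had the highest positive fold change of the hypoxia group. Adm, which encodes the vasodilator peptide adrenomedullin, stood at 5.37, 4.92, 9.14 and 57.3 CPM. The WT libraries were close together, KO replicate 1 was above them and KO replicate 2 was 6.27-fold above KO replicate 1. The log2 fold change was 2.69 ± 0.999 (edgeR unadjusted p = 0.0431, adjusted p = 0.999), and 0.83 without KO replicate 2. P4ha1, a collagen prolyl hydroxylase with the 8mer site printed above, stood at 24.9, 28, 31.6 and 79.8 CPM (log2 fold change 1.07 ± 0.55). Without KO replicate 2 the P4ha1 value was 0.26, and whether miR-205 acts on its site was not tested. Ddit4 (REDD1), an inhibitor of mTORC1, stood at 27.6, 28.6, 31.1 and 42.5 CPM. In Adm, P4ha1 and Ddit4 both KO values were above both WT values under TMM and under library totals.

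Ndrg1, a stress-responsive gene, stood at 473, 551, 408 and 495 CPM, with overlap, above Ldha in both WT libraries and below it in both KO libraries. Kdm3a, a histone demethylase, stood at 134, 153, 137 and 174 CPM, and its log2 fold change of 0.11 ± 0.25 turned to -0.03 with library totals. Ankrd37 was low, with 19, 47, 26 and 0 counts, at least 7.84-fold below the WT mean in KO replicate 2.

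The carbonic anhydrases, which take part in the handling of acid by glycolytic cells, differed in level. Car12 had 20.7, 34.2 and 24.5 CPM and no count in KO replicate 2, at least 382-fold lower than the WT mean. Car9, among the most specific hypoxia markers, had 5.13, 4.70 and 3.80 CPM and 6 counts in KO replicate 2, 34.2-fold lower than the WT mean (95% counting interval 15.7 to 93.2). KO replicate 1 stood at -0.36 for Car9 and -0.16 for Car12 relative to the WT mean (log2 of CPM + 0.1).

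**Figure D3:**
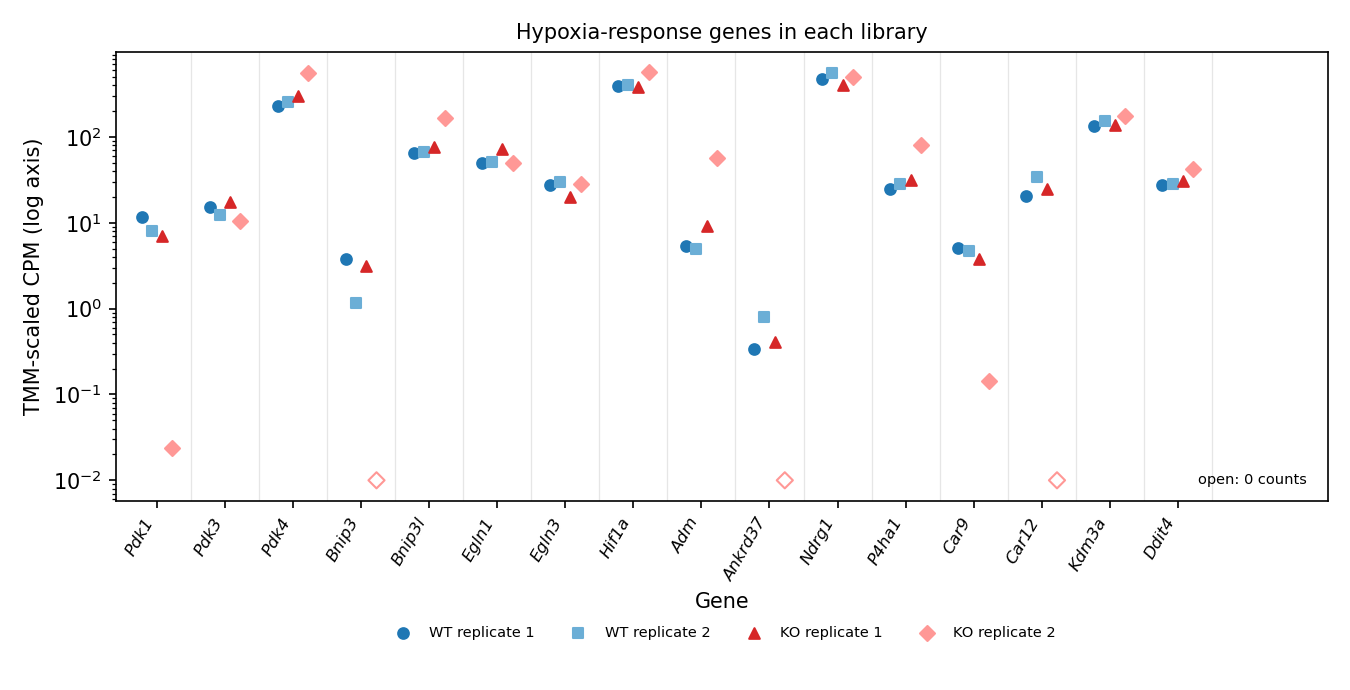
CPM of the 16 hypoxia-response genes (TMM-scaled, log axis) in the 4 libraries, 1 point per library, with open symbols for 0 counts drawn at the bottom. Pdk1, Bnip3, Ankrd37, Car9 and Car12 are lowest in KO replicate 2, while Pdk4, Bnip3l, Adm and P4ha1 stand highest there.

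Some hypoxia genes lay far above and others far below WT in KO replicate 2. Relative to the WT mean (log2 of CPM + 0.1), Adm, P4ha1, Bnip3l and Pdk4 stood at 3.45, 1.59, 1.32 and 1.19 in that library. Pdk1, Car9, Bnip3 and Car12 stood at -6.34, -4.36, -4.69 and -8.11. In KO replicate 1 the hypoxia genes ran from -0.51 to 0.82. In KO replicate 2, 9 of 36 listed genes and 43.4% of tested genes were more than 2-fold below the WT mean. More than 2-fold above it were 6 of 36 listed genes and 15% of tested genes. Values below were most frequent among low genes: 4 of 6 listed genes at up to 5 CPM in WT were more than 2-fold below the WT mean in KO replicate 2, against 66.8% of tested genes at that level. At 5 to 20 CPM it was 2 of 5 against 45.6%, at 20 to 50 CPM 2 of 6 against 26.7%, and at 50 to 100 CPM 0 of 5 against 14.3%. The part of low detection in these values was not tested.

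**Figure D4:**
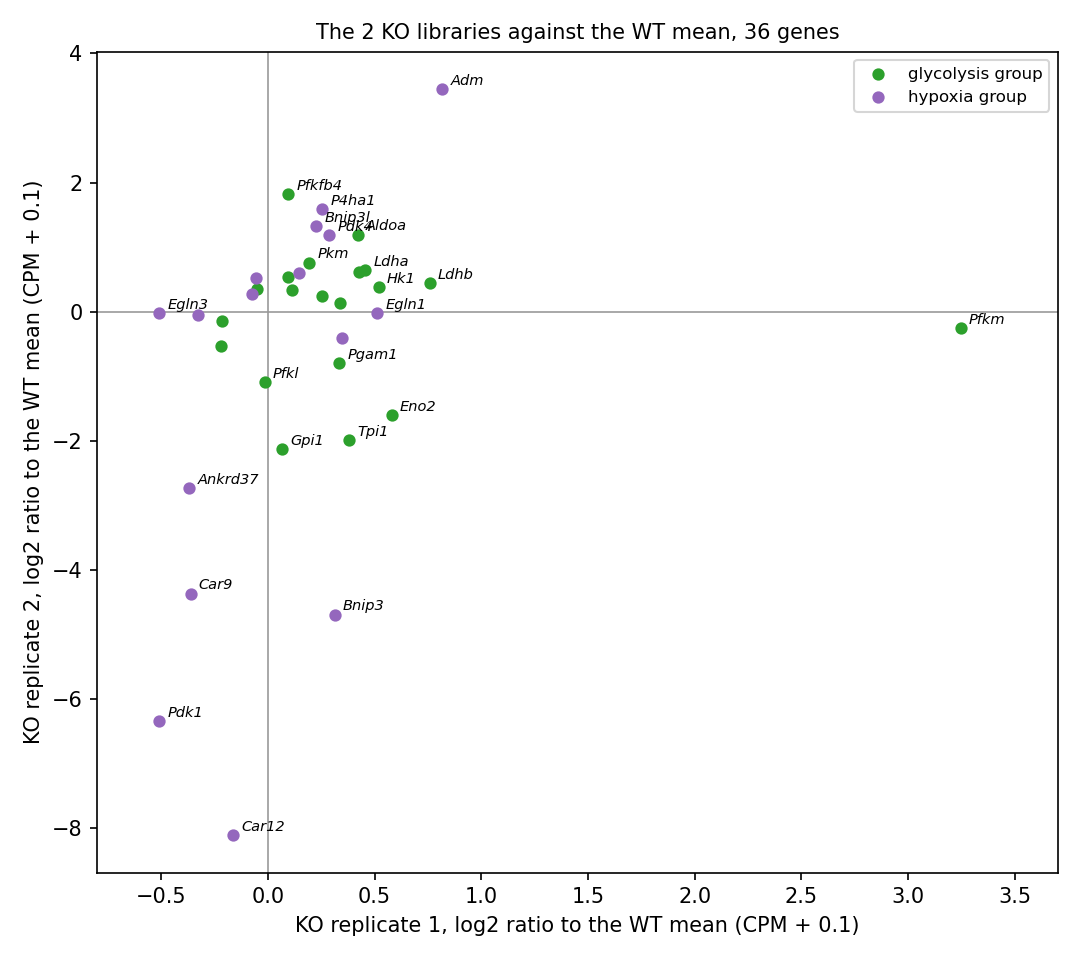
Log2 ratio to the WT mean (CPM + 0.1) of each of the 36 genes in KO replicate 1 (horizontal axis) and KO replicate 2 (vertical axis), coloured by group, with the WT mean shared by both axes. All genes but Adm, Ldhb and Pfkm lie between -0.51 and 0.58 horizontally, and the vertical range runs from -8.11 for Car12 to 3.45 for Adm.

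Fitted without KO replicate 1, where the only KO library is KO replicate 2, edgeR called 10 listed genes higher and 7 lower. Of all tested genes, 12.4% were called higher and 22.5% lower in that fit, so it cannot be told apart from what sets that library apart. Without KO replicate 2, edgeR called 0 of 36, and KO replicate 1 was above both WT libraries in 14 of 20 glycolysis genes and 7 of 16 hypoxia genes, where 31.4% of all tested genes were. Taken alone, KO replicate 1 was below both WT libraries in 7 of 36 genes (30.9% of tested genes), and KO replicate 2 was above in 19 (34.2%) and below in 14 (54.9%). At a mean of 50 CPM or more, KO replicate 1 was above in 12 of 19 listed genes and 36.6% of tested genes. It was below there in 4 of 19 and 31.1%. At that level KO replicate 2 was above in 13 of 19 and 58.2%, and below in 5 of 19 and 31.5%.

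Per kilobase of the principal transcript, the order of mean levels over the 4 libraries began with Ldha (331 CPM per kb), Gapdh (204), Aldoa (195), Ndrg1 (167), Slc2a1 (135) and Pkm (113). Ldha, at 265 to 418 CPM per kb, overlapped in range only with Aldoa at 127 to 317. Gapdh, Aldoa, Ndrg1 and Slc2a1 each overlapped with the next in that order. Hypoxia genes were spread over this order. Car9, Pdk1, Bnip3 and Ankrd37 had means of 1.70, 1.29, 1.15 and 0.415 CPM per kb, in the last 7 of the 36 positions. Ndrg1 was in position 4, and Kdm3a (30.8), Bnip3l (28.8), Ddit4 (18.5) and Adm (13.8) in positions 15, 16, 17 and 20.

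Other genes of the same pathways were read from lists of general knowledge, and 0 passed the test in either direction in any of them. Among other glycolysis and transport genes, 14 of 20 with a row were tested and 6 were positive (median -0.40). Bsg, the chaperone of lactate carriers, stood at 103, 105, 117 and 255 CPM. Among 14 genes of the HIF pathway, 8 were positive (median 0.12). Epas1, which encodes HIF-2alpha, stood at 356, 357, 326 and 212 CPM, with both KO values below both WT values, and Hif1an, an asparagine hydroxylase that restrains HIF, stood at 50.5, 35.1, 33.3 and 9.10 CPM. Among 27 other HIF target genes, 16 were positive (median 0.14), with both KO values above both WT values in 7 and below in 4, against 13.2% and 19.2% of all tested genes. Of these Hmox1, heme oxygenase, stood at 180, 326, 385 and 443 CPM, and Angptl4 at 407, 407, 417 and 640.2 CPM.

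On the mitochondrial side, 11 of 15 genes of the citric acid cycle were positive (median 0.32), with both KO values above both WT values in 5 and below in 1 (13.2% and 19.2% of all tested genes). Citrate synthase (Cs) stood at 175, 162, 197 and 317 CPM and Mdh2, malate dehydrogenase, at 99.6, 101, 124 and 205.15 CPM. Among 9 genes of the pyruvate dehydrogenase complex and its regulators, 3 were positive (median -0.06). Pdha1, the subunit that the listed kinases phosphorylate, stood at 90.9, 97.5, 108 and 168 CPM, and Pdp1, the opposing phosphatase, at 24.7, 26.2, 37.2 and 64.2 CPM. The second phosphatase, Pdp2, stood at 11.9, 2.47, 4.13 and 0.024 CPM, and Dld, a subunit of the complex, at 177, 187, 201 and 159.6 CPM, both with overlap. Of 8 pentose phosphate genes 3 were positive (median -0.26), with both KO values above both WT values in 1 and below in 3. G6pdx, the entry enzyme of that pathway, stood at 57.1, 65.5, 70.4 and 109 CPM, and Rpia, ribose phosphate isomerase, at 62.9, 65.6, 42.6 and 46.1 CPM. H6pd stood at 13, 11.2, 9.70 and 0.575 CPM, below WT in both KO libraries, and Pgd overlapped. Glucocorticoid and FOXO targets, a class that includes Pdk4 and Ddit4, were positive in 9 of 12 (median 0.23). Their median log2 ratio to the WT mean was -0.14 in KO replicate 1 and 0.55 in KO replicate 2. Both KO values were above both WT values in 4 and below in 2, against 13.2% and 19.2% of all tested genes. Sgk1 stood at 669, 691, 714 and 800.4 CPM, and Ccng2, below WT in both KO libraries, at 31.3, 29.9, 21.3 and 10.2 CPM. Of 8 genes of the integrated stress response 5 were positive (median 0.27), and Atf4 stood at 443, 462, 506 and 632 CPM. A bulk sample cannot tell fewer cells of a type from less RNA per cell.

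Markers of cells other than basal cells were present at low to moderate levels, and some moved with KO replicate 2. The 7 immune markers summed to 66.0, 149, 97.1 and 319 CPM, of which Cd74 made 56.1, 136, 71.9 and 289 CPM. Ptprc and Cd3e were also highest in KO replicate 2, while Lyz2 (3.49, 4.44, 20.04 and 1.37 CPM), Csf1r and Cd79a were lowest there and Cd52 was at 0. The 6 fibroblast markers summed to 525, 583, 604 and 786 CPM, mostly Fbn1 and Dcn. Dcn (89.5, 106, 153 and 221 CPM) was above WT in both KO libraries. Fbn1 and Pdgfra were also highest in KO replicate 2, and Col1a2 slightly so (28.9, 29.4, 20.9 and 30.9 CPM). Col3a1 (10.7, 30.2, 19.2 and 21.2 CPM) and Lum were not. The 5 adipocyte markers summed to 25.9, 40.8, 41.2 and 151 CPM, mostly Fabp4 and Lpl, while Adipoq, Plin1 and Cidec were at 0 in KO replicate 2. The 6 endothelial markers summed to 75.0, 126, 117 and 49.5 CPM. The 9 luminal markers summed to 519, 849, 593 and 915 CPM, and 6 of the 9 had negative fold changes. In KO replicate 2, Prlr (210.01 CPM) and Foxa1 (89.05 CPM) were highest, while Elf5 (0), Kit (1.44 CPM) and Esr1 (5.49 CPM) were lowest. Red cell and skeletal muscle markers were at or near 0. Adm, Pdk4, P4ha1 and Bnip3l were highest in the same library as the immune, fibroblast, adipocyte and luminal sums, and the part of these cells in their values was not tested.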

How the data were processed

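RNA sequencing measured total RNA of sorted basal cells in 2 WT and 2 KO libraries. The authors deposited 1 table of raw read counts per library, by Ensembl gene identifier. The submitters' processing notes name TopHat2 (2.02), HTSeq and NCBIM37 (mm9); annotation release, strand setting and overlap rule: not given in the sources used here. HTSeq's summary rows stayed out of library sizes (reads outside features were 57.6% to 61.5% of counted lines). Symbols, transcript lengths and 3′ UTRs came from GENCODE M21 (GRCm38), matched by gene identifier: 30082 of 34615 rows matched. Because that build is later than the counts, lengths are approximate.

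Genes were tested with edgeR 4.0.16 (R 4.3.3): filterByExpr, TMM, quasi-likelihood test on genotype, Benjamini-Hochberg over all 15364 tested genes, threshold 0.05. All 36 listed genes passed the filter. The SE is the unshrunken log2 fold change divided by the root of the F statistic. A count of 0 was read with a floor of 3 counts; intervals and floors cover counting error only. Near-identical transcripts were found with blastn 2.17.0. Alternatives were DESeq2 1.42.0 (size factors and Wald test), library totals, no low-count filter, a minimum mean CPM of 5, limma 3.58.1 voom, a replicate block and each library left out, where a lone library is assumed to vary like the others. The script was tested on simulated counts. The 36 genes, the other lists and the tests were chosen with earlier results of these data known. Named genes were all 36, and from each other list the 3 with the smallest p and the 2 most abundant, of which a selection is printed; 1 gene so chosen is not reported here. Ratios to the WT mean, backgrounds at matched abundance and the counts of non-overlapping libraries were added after seeing the data.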

Additional observations from a re-analysis of the deposited data

How the results depend on the processing

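Among 36 genes, changing the scaling, filter, test or block left the sign of the fold change and the side of the threshold as reported in 243 of 247 gene values. The 4 exceptions lay near 0: Pdk3 at -0.077 with library totals, -0.0219 under the minimum mean CPM of 5 and -0.0218 with the replicate block, and Kdm3a at -0.029 with library totals. The count of called genes over the whole table was 4 with the DESeq2 Wald test and 0 to 5724 when 1 library was left out; that of glycolysis genes ran from 0 to 8 and that of hypoxia genes from 0 to 9, and in both groups only the fit without KO replicate 1 gave calls. The median log2 fold change of the hypoxia group was -0.053 with library totals and 0.21 under that minimum, which leaves 13 genes, and ran from -0.024 to 0.22 when 1 library was left out. The glycolysis sum ratio was 1.13 with library totals. Listed genes with both KO libraries above WT numbered 9 of 36 with library totals (10.6% of all tested genes), and those below numbered 6 (21.4%). Leaving out 1 library gave 14 to 21 above, against 22.2% to 34.2% of all tested genes. Those below then numbered 4 to 14, against 30.9% to 54.9%.

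Leaving out 1 library turned the sign of 12 genes in at least 1 of 4 fits. The ranges were -2.14 to 0.068 for Gpi1, -1.11 to 0.089 for Pfkl, -0.34 to 6.63 for Pfkm, -0.048 to 0.36 for Pfkfb3, -2.01 to 0.39 for Tpi1, -0.80 to 0.34 for Pgam1, -1.71 to 0.60 for Eno2, -0.41 to 0.35 for Pdk3, -10.02 to 0.43 for Bnip3, -0.025 to 0.51 for Egln1, -0.053 to 0.52 for Hif1a and -0.070 to 0.27 for Kdm3a. The cause was not tested. With the replicate number as a block, 0 genes were called, as in the fit without it, and the medians of the 2 groups were 0.25 and 0.04. Deviations of same-numbered WT and KO libraries from their group means had a correlation of 0.0339 over 8839 genes. With 2 libraries per genotype the KO deviations also carry what sets KO replicate 2 apart. The correlation therefore cannot show whether the numbers pair the libraries.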
